A study of Mus musculus with 24 samples.

Results

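Hepatic growth hormone, insulin-like growth factor and insulin signalling was examined through 10 genes chosen by name from the table of gene counts, out of 54532 genes in that table. The 10 genes were Igf1, Igfals, Ghr, Socs2, Stat5b, Igfbp1, Igfbp2, Irs1, Irs2 and Insr. RNA-seq had been performed on the livers of male C57BL/6J mice, 8 to 10 weeks old, after a 24 h fast. Each of 6 genotype groups held 4 livers. Rab30KO mice lacked Rab30, a Golgi-associated Rab GTPase, in the whole body, and their wild-type littermates formed the Rab30 Ctrl group. Rab30L-/- mice lacked Rab30 in the liver only, through albumin-Cre acting on a Rab30 allele with a floxed exon 4. Cpt2L-/- mice lacked Cpt2 in the liver only, and DKO mice lacked both genes in the liver. Cpt2 encodes carnitine palmitoyltransferase 2, which long-chain fatty acids need for oxidation in mitochondria. Littermates of the DKO mice that carried both floxed alleles without Cre, named ff;ff, served as controls for the 3 liver-specific groups. Albumin-Cre acts in hepatocytes, so other liver cells keep both genes. No cohort carried Cre without a floxed allele, so Cre itself cannot be told apart from the deletions.

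Growth hormone binds its receptor on hepatocytes, encoded by Ghr, and the kinase Jak2 then activates the transcription factor Stat5b. Stat5b induces Igf1, the circulating growth factor, Igfals, which encodes the acid-labile subunit that holds Igf1 in a long-lived complex in the blood, and Socs2, which encodes a feedback inhibitor of the receptor. Insulin acts through its receptor, encoded by Insr, and the adaptor proteins Irs1 and Irs2, and it represses Igfbp1 and Irs2 by excluding FoxO transcription factors from the nucleus. Igfbp1 and Igfbp2 encode proteins that bind Igf1 outside the complex. The deposited table (GRCm38) places Igf1 at chr10:87858265-87937042 (plus strand), Igfals at chr17:24878770-24882008 (plus strand), Ghr at chr15:3317760-3583492 (minus strand), Igfbp1 at chr11:7197782-7202546 (plus strand) and Irs2 at chr8:10984681-11008458 (minus strand), all protein-coding. Prolonged fasting is known to make the liver resistant to growth hormone and to raise Igfbp1.

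Promoter windows of RefSeq (GRCm38.p6), 250 bases before to 50 bases after each annotated start, were at hand for 8 of the 10 genes, 13 windows in all. The 3 motifs named here were searched on both strands. TTCNNNGAA, the palindromic site type bound by STAT5, was in 2 of the 3 Igfals windows and in 8.3% of all 32851 windows. The Igfals window without it, chr17:24878497-24878796, is the one that spans the gene's start in the deposited table. CAAAACAA, the core of the insulin response element to which FoxO proteins bind, was in the windows of Igfbp1, Irs1 and Irs2 and in 2.51% of all windows. GTAAACA, another site bound by FoxO proteins, was in 1 Igfals window (as TGTTTAC, which shared no base with the STAT5 motif of the same window) and in 3.65% of all windows. No window of Igf1, Ghr, Stat5b or Igfbp2 held any of the motifs, which says only that these letters are not in these windows. The stretches from 150 to 21 bases before the start are shown for the genes with a match in them. Whether the motifs bear on the levels of these genes was not tested. Capitals mark the motif, which begins 58 bases before the start in Igfals, 108 in Igfbp1, 38 in Irs2 and 33 in Irs1 (TTGTTTTG is the core read on the other strand), and none of the stretches overlaps an annotated GENCODE exon. In the deposited table Igfals starts at 24878770 and Irs2, on the minus strand, at 11008458. The windows used for Igfals (chr17:24877981-24878280) and Irs2 (chr8:11008880-11009179) lie wholly before these starts. Those of Igfbp1 and Irs1 span the gene's start in that table.
Igfals, chr17:24878081-24878210, plus strand: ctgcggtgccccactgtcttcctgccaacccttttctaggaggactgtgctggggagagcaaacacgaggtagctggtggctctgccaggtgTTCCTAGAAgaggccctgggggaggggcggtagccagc
Igfbp1, chr11:7197637-7197766, plus strand: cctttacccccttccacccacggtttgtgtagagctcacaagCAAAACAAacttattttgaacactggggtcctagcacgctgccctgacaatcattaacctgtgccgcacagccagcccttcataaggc
Irs2, chr8:11008950-11009079, minus strand: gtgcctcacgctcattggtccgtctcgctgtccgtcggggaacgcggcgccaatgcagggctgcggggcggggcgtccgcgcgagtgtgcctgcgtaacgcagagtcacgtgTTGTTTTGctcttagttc
Irs1, chr1:82291460-82291589, minus strand: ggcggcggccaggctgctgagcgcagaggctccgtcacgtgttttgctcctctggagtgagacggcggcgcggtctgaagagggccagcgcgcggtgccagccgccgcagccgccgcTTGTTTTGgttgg

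Library totals ranged from 11801027 to 24497738 counts, and all 10 genes passed the filter on low counts in every comparison. Levels within a gene are given as CPM, counts divided by library size after TMM scaling over the 24 libraries. A gene was called when the adjusted p of edgeR's quasi-likelihood test was under 0.05 and the change was at least 1.2-fold. In that sense 0.022% of genes tested were called between Rab30KO and Rab30 Ctrl, 0.479% between Rab30L-/- and ff;ff, 23.8% between Cpt2L-/- and ff;ff, 16.1% between DKO and ff;ff, 2.71% between DKO and Cpt2L-/-, 30.7% between DKO and Rab30L-/-, and 4.06% for the interaction of the deletions. The counts over the whole genes Rab30 and Cpt2 do not check the labels, since reads outside a deleted exon still count. Rab30 stood at 101 to 231 CPM in the DKO libraries and at 122 to 188 CPM in Cpt2L-/-, against 25.8 to 44.6 CPM in ff;ff. Cpt2 stood at 96.0 to 119.9 CPM in DKO against 127.9 to 138.9 CPM in ff;ff. Cpt2 was 95.2 to 167 CPM in Cpt2L-/- and 169 to 267 CPM in Rab30L-/-, and Rab30 was 5.38 to 17.4 CPM in Rab30KO and 6.63 to 30.1 CPM in Rab30 Ctrl. In Rab30L-/- Rab30 was 10.4 to 26.6 CPM. The paper reports no Rab30 mRNA or protein in Rab30KO mice, and it assayed the liver-specific deletions by qRT-PCR and immunoblot. Groups are therefore named by their labels. The summed level of 9 hepatocyte markers was lower in Cpt2L-/- (50976 to 63382 CPM) and DKO (67999 to 83195 CPM) than in ff;ff (103870 to 135330 CPM), and 4 of 9 were called lower in each of these groups. In DKO against Rab30L-/- (89251 to 102860 CPM) 5 of 9 were called lower. Of 10 Kupffer cell markers, 3 were called lower in Cpt2L-/- and 6 in DKO against ff;ff (3 without ffff242 and DKO247), and 9 in DKO against Rab30L-/- (7 without DKO247), with sums of 178 to 268 CPM in Cpt2L-/-, 169 to 204 CPM in DKO, 219 to 402 CPM in ff;ff and 278 to 794 CPM in Rab30L-/-. Of 8 lymphocyte and blood markers tested, 4 were called lower in Cpt2L-/- than in ff;ff (5 without ffff242), with sums of 117 to 194 CPM and 238 to 672 CPM. Their part in the results below was not tested, and in whole liver fewer cells of a type and less RNA per cell cannot be told apart.

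The libraries ffff242 and DKO247 stood apart from the rest of their groups in this pathway. Igfbp1 was 3670 CPM in ffff242 and 116 to 345 CPM in the other 3 ff;ff livers. In DKO247 it was 2032 CPM, against 378 to 577 CPM in the other 3 DKO livers. Both libraries had the lowest Ghr and Igfals of their group and the highest Irs2. Values without them are therefore given beside the results they change most, a choice made after the values were seen.

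Compared per transcript length, by the median FPKM over the 24 livers, the binding proteins were the most abundant of the 10. Igfbp2 stood at 547 FPKM, Igfbp1 at 193, Igf1 at 51.1, Ghr at 38.7 and Igfals at 28.0. The signalling proteins followed, with Insr at 11.8 FPKM, Stat5b at 10.9, Irs2 at 5.63, Socs2 at 1.49 and Irs1 at 1.23. Igfbp1 was also the most variable, with a 76.4-fold range in CPM over the 24 livers. Irs2 and Socs2 had ranges of 10.8-fold and 10.7-fold, and Stat5b had the narrowest, at 1.68-fold. When the 6 groups were ordered by their mean for each gene, the mean ± SD intervals overlapped in 49 of the 50 neighbouring pairs. The single gap lay in Igfbp1, between Cpt2L-/- and Rab30L-/-, and over the 9580 genes with a mean of at least 5 CPM 5.14% of such pairs had a gap. By the range of the 4 livers there were 2 gaps, the other in Igf1 between Rab30KO and Rab30 Ctrl, against 4.27% of pairs over all those genes.

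**Figure D1:**
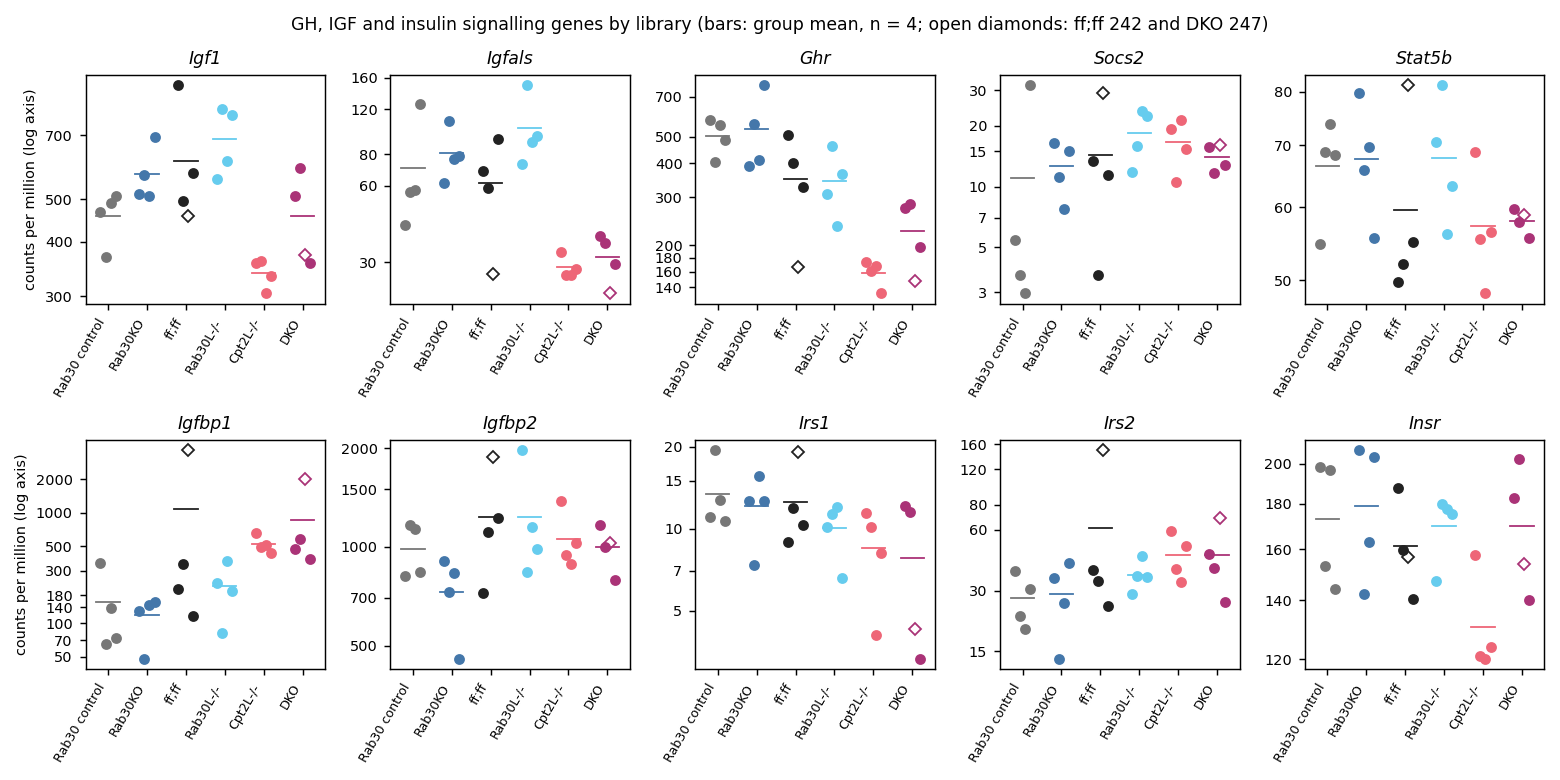
CPM of the 10 genes (log axes) in each library of the 6 groups, with bars for group means (n = 4) and open diamonds for ffff242 and DKO247. The 4 Cpt2L-/- livers hold the lowest group mean of Igf1, Igfals and Ghr, and the open diamonds hold the highest Igfbp1 of all 24 livers.

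The loss of Cpt2 alone was examined first. Between Cpt2L-/- and ff;ff, Igf1, Igfals and Ghr fell, and none of the 10 genes rose. Igf1 was 357, 361, 305 and 334 CPM in the 4 Cpt2L-/- livers, and 912, 496, 459 and 574 CPM in the 4 ff;ff livers. Every Cpt2L-/- liver was below every ff;ff liver, and the mean fell 1.81-fold (log2 fold change -0.86, SE 0.21, edgeR adjusted p = 0.00894). Igfals was 32.9, 26.8, 26.7 and 28.1 CPM in Cpt2L-/-, and 68.7, 58.6, 26.9 and 91.5 CPM in ff;ff. Only ffff242 reached into the range of the Cpt2L-/- livers. The log2 fold change of Igfals was -1.11 (SE 0.29, edgeR adjusted p = 0.0147). Ghr, the receptor itself, was 173, 160.4, 168 and 133 CPM in Cpt2L-/-, and 505, 399, 166 and 327 CPM in ff;ff, where ffff242 was again the single liver inside the other group's range. It fell 2.22-fold (log2 fold change -1.15, SE 0.27, edgeR adjusted p = 0.00804). The share of all genes tested that were called lower was 11.9%, the same as the share called higher, 11.9%. The median log2 fold change of the 10 genes was -0.52, and that of all genes tested was -0.0035. Without ffff242 the median of the 10 was -0.13.

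Without ffff242 the same 3 genes were called lower, with log2 fold changes of -0.97 for Igf1 (SE 0.20, edgeR adjusted p = 0.00308), -1.36 for Igfals (SE 0.17, edgeR adjusted p = 8.77e-05) and -1.38 for Ghr (SE 0.17, edgeR adjusted p = 9.2e-05). In that fit 25.4% of genes tested were called. Leaving out the ff;ff library ffff238 instead took Igfals to an edgeR adjusted p of 0.0518.

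DKO and Rab30L-/- livers differ by the same Cpt2 deletion on a background without Rab30, and they share no library with the comparison above. Igf1 and Igfals fell there too, and no gene of the 10 rose. Igfals was 37.9, 35.8, 22.6 and 29.5 CPM in DKO, and 73.4, 149.9, 89.3 and 94.3 CPM in Rab30L-/-. The groups did not overlap, and the mean fell 3.23-fold (log2 fold change -1.69, SE 0.23, edgeR adjusted p = 0.000549). Igf1 was 508, 589, 372 and 358 CPM in DKO, and 557, 804, 612 and 778 CPM in Rab30L-/-. A single DKO liver was above the lowest Rab30L-/- liver, so the groups overlapped. The log2 fold change of Igf1 was -0.59 (SE 0.20, edgeR adjusted p = 0.043), and its call was lost when any of 5 of the 8 libraries was left out. Ghr was 273, 283, 148 and 196 CPM in DKO, and 308, 463, 234 and 366 CPM in Rab30L-/-, a log2 fold change of -0.61 (SE 0.25) that was not called (edgeR adjusted p = 0.091). In this comparison 15.8% of genes tested were called lower and 14.9% higher. Without DKO247, where 25.6% of genes tested were called, Igfals alone was called among the 10, at -1.55 (SE 0.23, edgeR adjusted p = 0.00132), and Igf1 was at -0.49 (SE 0.21, edgeR adjusted p = 0.106).

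Set against ff;ff, with which the Cpt2L-/- comparison shares its control livers, none of the 10 genes was called in DKO by edgeR. At an unadjusted p under 0.05 there was 1, Igfals, where 29.7% of all genes tested passed. Igfals had a log2 fold change of -0.97 (SE 0.31, edgeR adjusted p = 0.0582), which DESeq2's Wald test called (adjusted p = 0.0135), as did limma-voom with sample weights (adjusted p = 0.0214). Of the genes tested, 8.24% were called lower. Without ffff242 and DKO247, where 12% of genes tested were called, Igfals was called at -1.09 (SE 0.19, edgeR adjusted p = 0.00346) and Ghr at -0.72 (SE 0.21, edgeR adjusted p = 0.0447). Igf1 was at -0.42 (SE 0.24, edgeR adjusted p = 0.265) with all libraries and at -0.45 (SE 0.25, edgeR adjusted p = 0.294) without those 2.

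Between DKO and Cpt2L-/- livers, which compares Rab30 loss in livers without Cpt2, edgeR called none of the 10. Igf1, Ghr and Insr were higher in DKO at an unadjusted p under 0.05, 3 of 10 genes, where 21.2% of all genes tested passed that limit. Their log2 fold changes were 0.44 (SE 0.17, edgeR adjusted p = 0.166), 0.52 (SE 0.19, edgeR adjusted p = 0.155) and 0.39 (SE 0.15, edgeR adjusted p = 0.157). The limma-voom fit with sample weights called all 3, and DESeq2's Wald test called none of the 10. Without DKO247, where 3.28% of genes tested were called, Ghr was called at 0.67 (SE 0.16, edgeR adjusted p = 0.044). Insr, the insulin receptor, was 183, 202, 154 and 140.05 CPM in DKO, and 157, 121, 120.2 and 124 CPM in Cpt2L-/-, with the top Cpt2L-/- liver inside the DKO range.

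**Figure D2:**
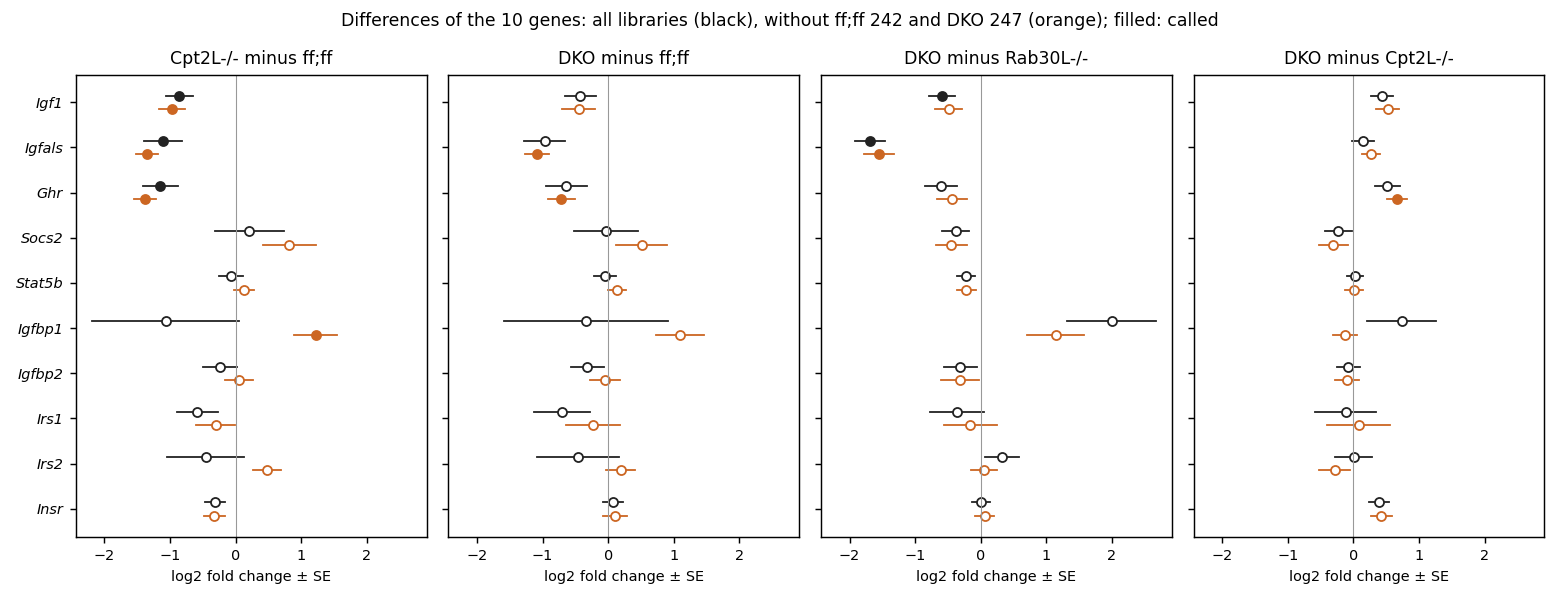
Log2 fold changes with SE of the 10 genes in 4 comparisons, with all libraries in black and without ffff242 and DKO247 in orange, filled where called. Igfals lies below 0 in the first 3 panels in both colours, while Igfbp1 against ff;ff moves from -1.07 to 1.22 for Cpt2L-/- when ffff242 is left out.

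For Igfbp1, the binding protein that insulin represses, the direction of the difference depended on ffff242. Igfbp1 was 662, 492, 506 and 435 CPM in the 4 Cpt2L-/- livers, and 205, 345, 3670 and 116 CPM in the 4 ff;ff livers. All Cpt2L-/- livers were above 3 of the ff;ff livers and below ffff242. With all libraries the log2 fold change was -1.07 (SE 1.13, edgeR adjusted p = 0.553). Without ffff242 it was 1.22 (SE 0.33, edgeR adjusted p = 0.0204), a 2.34-fold rise. In the DKO livers it was 474, 577, 2032 and 378 CPM, and in Rab30L-/- livers 232, 81.9, 364 and 196 CPM. These groups did not overlap, although the lowest DKO liver was just above the highest Rab30L-/- liver. The log2 fold change of 1.996 (SE 0.67) had an edgeR adjusted p of 0.0601, the adjusted p was 0.014 by DESeq2's Wald test, and without DKO247 the log2 fold change was 1.14 (SE 0.43, edgeR adjusted p = 0.0909). Against ff;ff without both libraries, Igfbp1 in DKO was at 1.09 (SE 0.37, edgeR adjusted p = 0.0976), and with all libraries at -0.34 (SE 1.25, edgeR adjusted p = 0.892).

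Irs2, the insulin receptor substrate whose transcript rises with fasting, was 59.5, 38.3, 33.2 and 49.7 CPM in Cpt2L-/-, and 38.0, 33.5, 149 and 25.2 CPM in ff;ff. In DKO it was 45.5, 38.9, 68.9 and 26.3 CPM. It was not called in any comparison, with or without ffff242 and DKO247. Its log2 fold change between Cpt2L-/- and ff;ff was -0.46 (SE 0.59) with all libraries and 0.48 (SE 0.22, edgeR adjusted p = 0.126) without ffff242.

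Within groups, livers with more Igfbp1 had more Irs2 and less Igfals. Over the 24 livers, the deviations of log2 CPM from the group means had a Pearson r of 0.831 for Igfbp1 with Irs2 and of -0.825 for Igfbp1 with Igfals. Over the livers other than ffff242 and DKO247, with group means taken anew, these were 0.575 and -0.688. For Irs2 with Igfals r was -0.545 over all livers and -0.122 without those 2. For Igfbp1 r was 0.211 with Irs1 and 0.241 with Insr over all livers, and 0.175 and 0.549 without those 2. Igf1 and Ghr had an r of 0.777, and 0.743 without them. These are descriptions over livers that share the scaling within a library. The genes whose deviations were nearest to those of Igfbp1, out of 9580 with a mean of at least 5 CPM, were B930025P03Rik, a long non-coding RNA (r = 0.879), Trp53inp1 (0.838), Lepr, which encodes the leptin receptor (0.833), Irs2 and Ppp1r3g, which encodes a glycogen-targeting subunit of protein phosphatase 1 (0.83). Ppp1r3g was 165.7 CPM in ffff242 and 1.65 to 2.66 CPM in the other ff;ff livers. In DKO247 it was 49.97 CPM, inside the range of the other DKO livers, 5.44 to 55.1 CPM. Lepr was 63.0 CPM in ffff242 against 4.25 to 7.55 CPM in the other ff;ff livers, and 244 CPM in DKO247 against 32.7 to 108 CPM in the other DKO livers. Ppp1r3g (0.861), Ammecr1l (0.839), Igfbp1, Chd1 (0.831) and B930025P03Rik (0.79) were nearest to Irs2. Nearest to Igfals were Trim32 (0.861), Pex26 (0.85), Slc25a23 (0.827), Tinf2 (0.811) and Ggt6 (0.809), and nearest to Igf1 were Stk38 (0.839), Tbl1x (0.83), Tmem123 (0.817), Dpp4 (0.814) and Arhgap29 (0.812). Without ffff242 and DKO247, r for the 5 nearest genes was 0.575 to 0.915 for Igfbp1, 0.575 to 0.821 for Irs2, 0.691 to 0.828 for Igfals and 0.782 to 0.807 for Igf1.

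**Figure D3:**
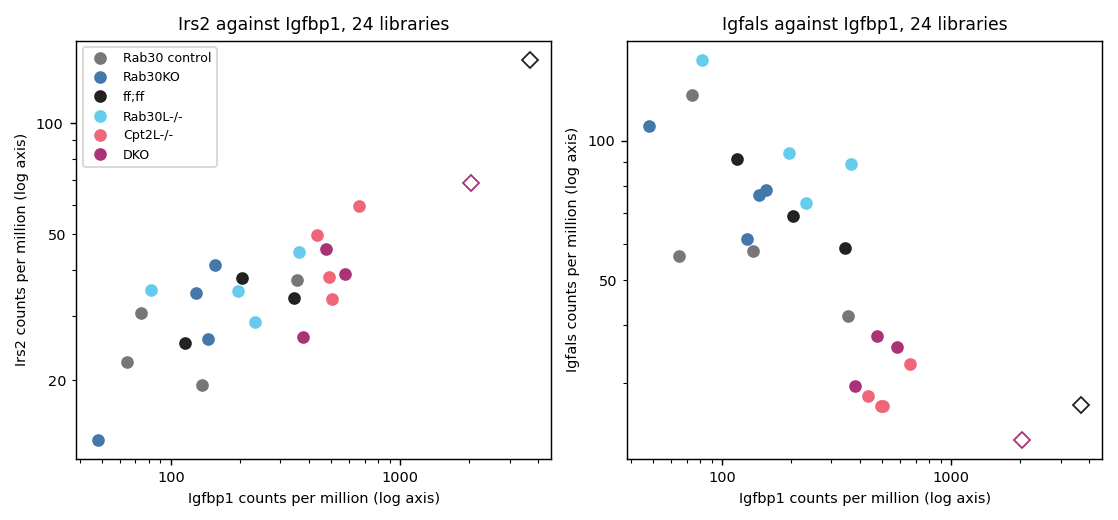
Irs2 (left) and Igfals (right) against Igfbp1 in CPM on log axes, 1 point for each of 24 livers coloured by group, with open diamonds for ffff242 and DKO247. The Cpt2L-/- and DKO livers lie at 378 CPM of Igfbp1 or above with Igfals at or below 37.9 CPM, a range that ffff242 shares.

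Stat5b and Socs2, the transcription factor and the feedback inhibitor of growth hormone signalling, were not called in any of the 7 tests with all libraries. Stat5b ranged from 48.4 to 68.9 CPM in Cpt2L-/- and from 49.8 to 81.3 CPM in ff;ff, with a log2 fold change of -0.07 (SE 0.18, edgeR adjusted p = 0.83). In the DKO livers it lay between 55.5 and 59.8 CPM. Socs2 was 13.4, 3.66, 28.9 and 11.4 CPM in ff;ff and 19.3, 10.5, 21.4 and 15.3 CPM in Cpt2L-/-, a log2 fold change of 0.21 (SE 0.53, edgeR adjusted p = 0.82). Without ffff242 the log2 fold change of Socs2 was 0.82 (SE 0.40, edgeR adjusted p = 0.171). Igfbp2, a binding protein of the fasted liver, was 725, 1112, 1885 and 1221 CPM in ff;ff, and its log2 fold changes in Cpt2L-/- and DKO were -0.23 (SE 0.26) and -0.32 (SE 0.26), and 0.05 (SE 0.21) and -0.05 (SE 0.23) without ffff242 and DKO247. Irs1 was below 20 CPM in every liver and had log2 fold changes of -0.58 (SE 0.32, edgeR adjusted p = 0.212) in Cpt2L-/- and -0.71 (SE 0.42, edgeR adjusted p = 0.303) in DKO. Without the same libraries these were -0.30 (SE 0.29) and -0.23 (SE 0.41). Insr was at -0.31 (SE 0.15, edgeR adjusted p = 0.149) in Cpt2L-/-.

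Loss of Rab30 alone gave no call among the 10 genes by edgeR, DESeq2 or limma-voom, in the whole body or in the liver. Between Rab30KO and Rab30 Ctrl none passed at an unadjusted p under 0.05 either, where 2.21% of all genes tested did. Igf1 was 513, 567, 508 and 693 CPM in Rab30KO, and 467, 368, 490 and 508 CPM in Rab30 Ctrl. The lowest Rab30KO liver, at 508.06 CPM, was barely above the highest control, at 507.87 CPM, and the log2 fold change was 0.31 (SE 0.17, edgeR adjusted p = 1). Socs2 was 5.44, 3.65, 2.97 and 31.8 CPM in Rab30 Ctrl, a range set by WT221, and 7.79 to 16.5 CPM in Rab30KO. Igfbp1 was 48.0 to 155 CPM in Rab30KO and 64.7 to 353 CPM in Rab30 Ctrl. Between Rab30L-/- and ff;ff, none of the 10 passed at an unadjusted p under 0.05, where 11.2% of all genes tested did. Igfals had a log2 fold change of 0.72 (SE 0.34, edgeR adjusted p = 0.469), and 0.47 (SE 0.24, edgeR adjusted p = 0.478) without ffff242, a fit in which 0.319% of genes tested were called and none of the 10.

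The interaction asked whether the difference between DKO and Cpt2L-/- livers was unlike that between Rab30L-/- and ff;ff livers. None of the 10 genes was called by edgeR, DESeq2 or limma-voom. Igfbp1 passed at an unadjusted p under 0.05, where 21.7% of all genes tested did, with an interaction of 3.06 on the log2 scale (SE 1.37, edgeR adjusted p = 0.217). Without ffff242 and DKO247, where 4.97% of genes tested were called, the interaction of Igfbp1 was -0.08 (SE 0.60, edgeR adjusted p = 0.947). That of Ghr was then 0.94 (SE 0.30, edgeR adjusted p = 0.073).

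The other genes of these pathways were taken as lists written from general knowledge. Male-biased genes are given beside the shares of all genes tested called lower, 11.9% in Cpt2L-/- against ff;ff, 8.24% in DKO against ff;ff and 15.8% in DKO against Rab30L-/-, where 14.9% were called higher. Of 17 male-biased, growth hormone-dependent liver genes tested between Cpt2L-/- and ff;ff, 9 fell and none rose, with a median log2 fold change of -0.88. Without ffff242, 10 of 18 fell and 1 rose, Hsd3b5, at 1.37 (SE 0.42, edgeR adjusted p = 0.0283), a gene named after its value was seen. Cyp7b1, an oxysterol hydroxylase, fell 4.93-fold (log2 fold change -2.30, SE 0.31, edgeR adjusted p = 0.00033), Susd4 fell 4.46-fold (-2.16, SE 0.19) and Mup20, a male urinary protein, fell 3.51-fold (-1.81, SE 0.42). In DKO against the same ff;ff livers, 9 of 18 fell and none rose, and 7 fell without ffff242 and DKO247. Cyp7b1 had a log2 fold change of -1.89 (SE 0.38), Selenbp2 of -1.82 (SE 0.34) and Mup20 of -1.64 (SE 0.47) there, and of these Mup20 was not called without ffff242 and DKO247 (edgeR adjusted p = 0.172). Between DKO and Rab30L-/-, 6 of 18 fell and 2 rose, and without DKO247 4 fell and 2 rose. The genes that rose were Cyp4a12a and Cyp4a12b, at 0.89 (SE 0.25) and 1.90 (SE 0.24), a pair of close paralogs whose reads may be split uncertainly, and Selenbp2 fell most, at -3.83 (SE 0.62).

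Few female-biased genes of growth hormone action were abundant enough to test, 10 of 22 in each comparison with Cpt2-deficient livers and their Cpt2-sufficient counterparts. Tox was the single gene called against ff;ff, where 23.8% (Cpt2L-/-) and 16.1% (DKO) of all genes tested were called, higher by 0.98 (SE 0.22) in Cpt2L-/- and by 1.21 (SE 0.24) in DKO on the log2 scale. Cux2, a female-specific transcription factor, was 0.09 to 1.03 CPM in DKO and 5.58 to 28.9 CPM in Rab30L-/-. It was too low to be tested between DKO and Cpt2L-/-, so it entered this test through its level in Rab30L-/-. The log2 fold change of -5.36 (SE 0.72, edgeR adjusted p = 0.00106) rests on DKO values near the floor, and its size is uncertain. In ff;ff the liver ffff248 stood at 40.7 CPM of Cux2 against 1.30 to 2.72 CPM in the other 3. In DKO against Rab30L-/-, 2 of the 10 tested fell and 2 rose, where 15.8% of all genes tested were called lower and 14.9% higher. Besides Cux2, Cyp17a1 fell, at -2.76 (SE 0.84), while Tox rose, at 1.21 (SE 0.25), and so did Trim24, at 0.49 (SE 0.11).

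In the growth hormone receptor pathway, Stat5a, the partner of Stat5b, was 17.1 to 19.1 CPM in Cpt2L-/- and 9.19 to 12.2 CPM in ff;ff and rose by 0.64 on the log2 scale (SE 0.15, edgeR adjusted p = 0.00824). Prlr, the prolactin receptor, fell (-0.71, SE 0.23), and the remaining 13 of 15 genes were not called, a count that became 10 of 15 without ffff242, where 23.8% and 25.4% of all genes tested were called. In DKO against ff;ff, where 16.1% of all genes tested were called, Stat5a alone was called, at 0.69 (SE 0.16), and without ffff242 and DKO247 Lepr alone, at 3.59. Between DKO and Rab30L-/-, 5 of 15 fell and 2 rose, where 15.8% of all genes tested were called lower and 14.9% higher. Onecut1 (-1.99, SE 0.50), Socs3, a cytokine-induced inhibitor (-1.956, SE 0.24), and Prlr (-0.75, SE 0.22) were among those that fell, and Bcl6, a repressor of Stat5 targets (0.68, SE 0.22), and Sirt1 (0.47, SE 0.12) rose. Without DKO247 4 fell and 2 rose, and Prlr was no longer called (edgeR adjusted p = 0.0713). Of the IGF system, Igfbp4 fell in all 3 comparisons with Cpt2-deficient livers, at -1.04 (SE 0.14), -0.80 (SE 0.15) and -1.10 (SE 0.14) in the order above. Igf2r, which clears Igf2, rose by 0.55 (SE 0.17), 0.55 (SE 0.13) and 0.62 (SE 0.14) on the log2 scale, and Igfbp3 by 0.62 (SE 0.17) in DKO against ff;ff and by 0.52 (SE 0.14) in DKO against Rab30L-/-.

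Genes of the insulin receptor pathway were called in both directions, in shares to be read against the 23.8%, 16.1% and 30.7% of all genes tested that were called in these comparisons. In Cpt2L-/- against ff;ff, 4 of 30 rose and 5 fell, in DKO against ff;ff 5 rose and 3 fell (3 and 1 without ffff242 and DKO247), and in DKO against Rab30L-/- 6 rose and 5 fell (6 and 2 without DKO247). Trib3, an inhibitor of Akt, rose by 1.85 (SE 0.36) and Grb14, an adaptor that inhibits the insulin receptor, by 0.74 (SE 0.18) in Cpt2L-/- on the log2 scale. Pik3r1 (-1.03, SE 0.14), Foxo1 (-1.02, SE 0.17) and Foxo4 (-0.70, SE 0.16) fell there. In DKO against Rab30L-/-, Phlpp2 (1.06, SE 0.23), Gsk3b (0.71, SE 0.13) and Grb10 (0.65, SE 0.23) rose most, and Foxo4 (-0.64, SE 0.14) and Ceacam1 (-0.58, SE 0.19) fell most. Grb10 and Ceacam1 were not called without DKO247 (edgeR adjusted p = 0.14 and 0.0859).

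Insulin-repressed genes other than Igfbp1 did not share a direction. Pdk4, which spares glucose by inhibiting pyruvate dehydrogenase, was 284 to 470 CPM in Cpt2L-/- and 365 to 834 CPM in DKO, against 11 to 40.8 CPM in ff;ff and 5.27 to 7.17 CPM in Rab30L-/-. Its log2 fold change was 3.83 (SE 0.47) in Cpt2L-/- against ff;ff and 6.83 (SE 0.31, edgeR adjusted p = 7.77e-07) in DKO against Rab30L-/-. G6pc, the last enzyme of glucose production, went down in Cpt2L-/-, with 79.8 to 176 CPM against 611 to 1162 CPM in ff;ff (log2 fold change -2.76, SE 0.26, edgeR adjusted p = 1.58e-05), and it was the single gene of the lists called in Rab30L-/- against ff;ff (-1.28, SE 0.24, edgeR adjusted p = 0.0423), a call that was lost when any of 6 of the 8 libraries was left out. Without ffff242 Socs3 was called higher in that comparison instead, at 1.46 (SE 0.26, edgeR adjusted p = 0.0476). Over the list, 2 of 15 rose and 4 fell in Cpt2L-/- (2 and 6 without ffff242), 3 rose and 4 fell in DKO against ff;ff, and 5 rose and 3 fell in DKO against Rab30L-/-, beside 23.8%, 16.1% and 30.7% of all genes tested that were called in either direction. The list of insulin-induced genes covered glycolysis and fat synthesis, and over all genes tested 11.9%, 8.24% and 15.8% were called lower in the 3 comparisons. In Cpt2L-/- 6 of 11 fell and 1, Pklr, rose (0.69, SE 0.18; 7 and 2 without ffff242), in DKO against ff;ff 5 of 11 fell and none rose, and in DKO against Rab30L-/- 6 of 11 fell and none rose. Thrsp, a lipogenic regulator, fell most in each, at -2.78 (SE 0.32), -2.32 (SE 0.29) and -2.64 (SE 0.28). Elovl6, which elongates fatty acids, was at -1.35 (SE 0.16), -1.13 (SE 0.22) and -1.08 (SE 0.35), the last not called without DKO247.

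Where 23.8%, 16.1% and 30.7% of all genes tested were called in the 3 comparisons in turn, among 13 regulators of growth hormone action in fasting and stress 4 rose and 3 fell in Cpt2L-/-, 4 rose and 2 fell in DKO against ff;ff (2 and 1 without ffff242 and DKO247), and 3 rose and 3 fell in DKO against Rab30L-/-. Fgf21, a fasting hormone of the liver known to blunt growth hormone signalling, was 30.4 to 72.1 CPM in Cpt2L-/- and 3.41 to 18.1 CPM in ff;ff, with a log2 fold change of 2.73 (SE 0.57, edgeR adjusted p = 0.0108). In DKO it was 32.5 to 87.5 CPM and in Rab30L-/- 2.81 to 12 CPM, a log2 fold change of 3.13 (SE 0.47, edgeR adjusted p = 0.00208). Gdf15, a stress hormone also known to lower Igf1 output, was 29.8 to 72.8 CPM in Cpt2L-/- and 0.70 to 7.44 CPM in ff;ff (log2 fold change 3.17, SE 0.56, edgeR adjusted p = 0.00439). Fgfr4, the hepatocyte FGF receptor, fell in the 3 comparisons at -1.05 (SE 0.19), -0.94 (SE 0.16) and -1.07 (SE 0.12). Between DKO and Cpt2L-/-, Susd4 (0.96, SE 0.22) was called higher in DKO and Pklr (-0.79, SE 0.15) lower.

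**Figure D4:**
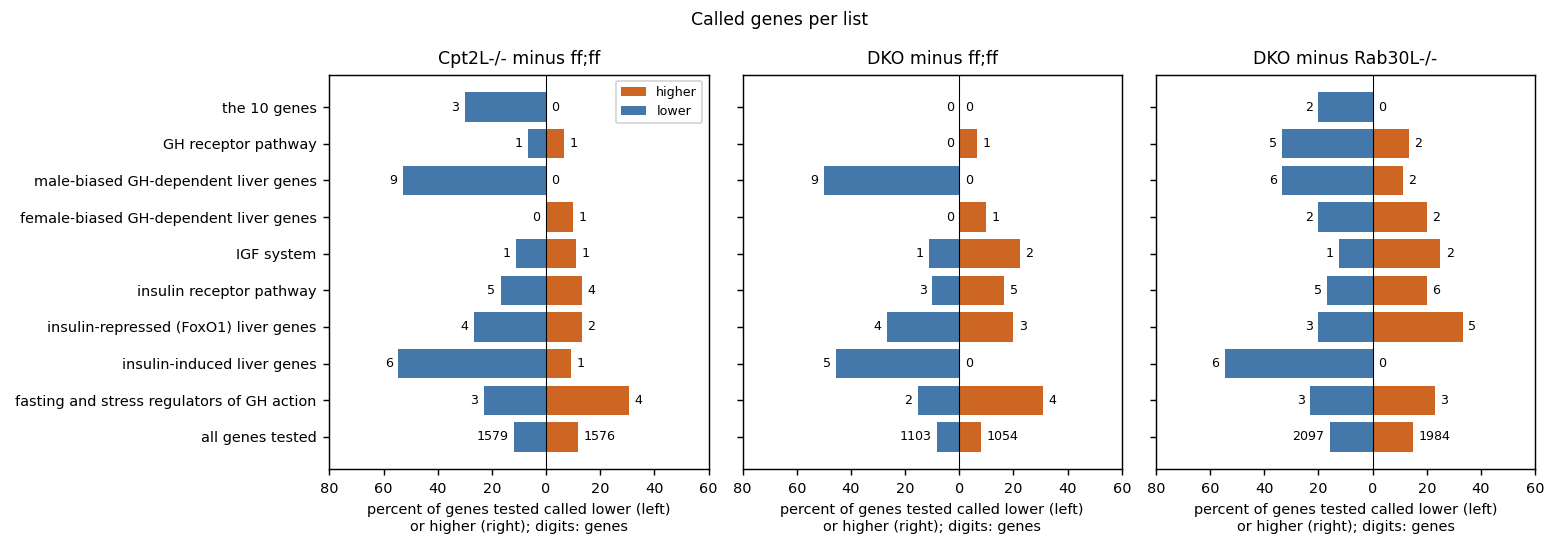
Percent of the genes tested in each list that were called lower (left, blue) or higher (right, orange) in 3 comparisons, with the number of genes beside each bar and all genes tested at the bottom. Male-biased growth hormone-dependent genes were called lower in 9 of 17, 9 of 18 and 6 of 18, and insulin-induced genes in 6, 5 and 6 of 11.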

How the data were processed

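RNA-seq was performed on whole fasted liver, 4 mice (biological replicates) in each of 6 groups, and samples were grouped by their labels. The authors deposited raw counts per gene and FPKM values (scaled to gene length and library size). Per the labels, the submitters' processing notes name HISAT2, DESeq2 and GRCm38 (mm10). The counter, annotation and strand setting are not given in the sources used here, so overlapping and antisense genes are uncertain. Deposited tables that hold the authors' own comparisons or normalized counts were not used.

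Counts were tested with edgeR 4.0.16 (R 4.3.3): filterByExpr, TMM, robust quasi-likelihood F-test on the 8 libraries compared (16 for the interaction) and Benjamini-Hochberg adjustment over all genes tested. Calls needed an adjusted p under 0.05 and a 1.2-fold change. CPM used TMM factors over 24 libraries, and FPKM served only to compare genes. Scripts were tested on simulated data. No 2 replicates agreed within sampling noise (lowest chi-square per degree of freedom 13.4 over 36 pairs). DESeq2 1.42.0, limma 3.58.1 (voom with sample weights), other scaling and filters, 1 fit of 24 libraries and leaving out each library were tried. Totals of 11801027 to 24497738 counts make low genes such as Irs1 and Socs2 less precise. Named were the 10 genes, up to 3 called genes per direction, list and comparison, and the 5 nearest genes for Igf1, Igfals, Igfbp1 and Irs2 (deviations of log2 CPM, prior count 2). Some genes of the lists enter the counts but are not reported here by name. The genes and lists were chosen with earlier results of these data known.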

Additional observations from a re-analysis of the deposited data

Results flagged for a closer look

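The 10 genes in 6 groups gave 60 sets of 4 livers. In 7 of them, 1 liver lay farther from the other 3 than Dixon's 95% limit allows. About 1 in 20 sets of independent, normal values would pass that limit. These sets hold untransformed CPM of the same livers, and the share over all genes was not counted, so no excess is read from the 7. Igfbp1 was 3670 CPM in ffff242, with the next ff;ff liver at 345 CPM, and 2032 CPM in DKO247, with the next DKO liver at 577 CPM. Irs2 was 149.1 CPM in ffff242 against 38.0 CPM in the next ff;ff liver, and Stat5b was 81.3 CPM there against 55.0 CPM. Socs2 was 31.8 CPM in the Rab30 Ctrl liver WT221, with the next at 5.44 CPM. Insr was 157.4 CPM in the Cpt2L-/- liver Cpt2164, above 123.8 CPM in the next, and 147 CPM in the Rab30L-/- liver Rab30cff741, below 175 CPM in the next.

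For genes of the other lists named next, the difference of DKO from Cpt2L-/- was unlike that of Rab30L-/- from ff;ff by edgeR's quasi-likelihood test. This interaction was called for 4.06% of all genes tested. It was called for 3 of 30 insulin receptor pathway genes, 3 of 15 insulin-repressed genes and 1 of 15 growth hormone receptor pathway genes. Of 18 male-biased genes 1 was called, and of 11 insulin-induced genes 1 was positive and 1 negative. Some of these are not named here. On the log2 scale it was positive for Pdk4 (3.01), G6pc (2.58), Txnip (1.69), Foxo1 (1.24), Sos1 (1.05) and Sirt1 (0.832), and negative for Selenbp2 (-3.7) and Pklr (-1.24). Without ffff242 and DKO247 Selenbp2 was no longer called, at -3.82 (edgeR adjusted p = 0.0567). None of the 10 genes of the report was among them.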

How the results depend on the processing

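The labels call the ff;ff and Rab30 Ctrl mice littermates of DKO and Rab30KO mice but do not give the litters. No analysis paired by litter was therefore possible. Of 1140 values of the 10 genes under the alternatives, 16 gained a call, 6 lost one, 7 reversed and 1111 kept their side of the threshold, of which 80, not called and within 1 SE of 0, changed sign. With 1 library left out, the log2 difference of Igfbp1 ranged from -1.45 to 1.22 in Cpt2L-/- against ff;ff, with the positive value without ffff242, and from -0.13 to 0.99 in DKO against Cpt2L-/-, with the negative value without DKO247. Irs2 ranged from -1.05 to 0.15 in Rab30L-/- against ff;ff and from -0.15 to 1.05 in the interaction, both turned by ffff242, and Igfbp2 from -0.46 to 0.023 in DKO against Rab30L-/-, turned by Rab30cff741. In the interaction without both ffff242 and DKO247, Igfbp1 was at -0.084 and Irs2 at -0.43. The cause was not tested.

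Of the 10 genes, DESeq2's Wald test, limma-voom and the fit of 24 libraries each called 1 in DKO against ff;ff, and 2 were called without both libraries. With 1 library left out, 0 to 2 were called there, 2 to 4 in Cpt2L-/- against ff;ff, 0 to 1 in DKO against Cpt2L-/- (3 by limma-voom) and 1 to 3 in DKO against Rab30L-/-. In the last, Igf1 lost its call without any of Rab30cff978, Rab30cff980, DKO232, DKO247 or DKO943, while Ghr gained one without Rab30cff979, Socs2 without Rab30cff741 and Igfbp1 without DKO943.

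Over all genes, 3 were called between Rab30KO and Rab30 Ctrl, against 10 by DESeq2, 1 by limma-voom, 9 in the fit of 24 libraries, 6 without a filter, 0 with 10 counts in every library and 0 to 4 with 1 library left out. Between Rab30L-/- and ff;ff 64 were called, against 298 by DESeq2, 239 by limma-voom, 240 without a filter, 25 with 10 counts in every library and 23 to 93 with 1 library left out. Between DKO and Cpt2L-/- 360 were called, against 1032 by DESeq2, 1535 by limma-voom, 114 in the fit of 24 libraries, 705 without a filter and 57 to 445 with 1 library left out. For the interaction 571 were called, against 1080 by DESeq2, 1294 by limma-voom and 300 to 679 with 1 library left out, and in DKO against ff;ff 2157, against 3742 by limma-voom. Of 1709 values of other named genes, 1472 kept their call, 237 lost it and none reversed.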
